A study of Caenorhabditis elegans with 12 samples.

Results

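Heated affl-2 mutants of the nematode Caenorhabditis elegans were set against heated animals of the wild type N2, to find which mRNAs the mutant lacks or has in excess once the heat shock response is under way. Every library of these 2 groups was used, 6 of the 12 in the series. The heated mutants (3 libraries) are strain PS8060 with the affl-2 allele sy975, and the heated wild type (3 libraries) is strain N2. Both groups were larvae of the L4 stage, 250 to a plate with OP50 bacteria, held under parafilm for 30 min in water at 33 °C. The unheated mutants and unheated N2 animals (3 libraries each), handled alike but left at 20 °C, are given beside them. The labels do not give the lesion of sy975 nor whether each library is a culture of its own, so the p-values cover the spread between libraries only, and that spread may be technical. RNA of whole animals was selected for poly(A), broken to about 200 nt and read from one end for 50 nt with a kit that keeps no strand.

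AFFL-2 belongs to the AF4/FMR2 family, whose mammalian members are scaffolds of complexes that help paused RNA polymerase to elongate. Heat unfolds proteins, and the transcription factor HSF-1 answers within minutes by switching on chaperone genes through heat shock elements in their promoters. Inducible HSP70 proteins and small heat shock proteins hold unfolded proteins, while HSP110, HSP40 (DNAJ) and HSP90 proteins with their cochaperones refold or mature them.

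Estimated counts summed to 22238332, 19780085 and 20539034 in the heated affl-2 libraries and to 20280314, 18647100 and 20764982 in the heated N2 libraries. Of 22010 genes, 15386 had enough counts to be tested. Levels are given as CPM (counts scaled to a library of 1000000) in replicates 1, 2 and 3, and differences as the log2 ratio of affl-2 over N2 ± its standard error. Adjusted p-values come from edgeR's quasi-likelihood test with Benjamini-Hochberg adjustment over all 15386 genes, and a gene passed at 0.05.

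After heat shock 3034 genes passed, 19.7% of those tested. Of them 1473 were lower in affl-2 than in N2 (9.57% of genes tested) and 1561 higher (10.1%). Every list count below is to be read against these shares, and a count near them is no result about the list. Differences beyond 2-fold were lower in 600 cases (3.90%) and higher in 352 (2.29%). Every heated affl-2 library stood below the lowest N2 library in 17.6% of genes tested and above the highest in 21.9%, whether or not they passed. Scaling by library size alone in place of TMM moved the median of all genes by 0.22 on the log2 scale, from 0.04 to 0.26, and then 831 genes were lower and 4867 higher. Lower genes made up 48.55% of calls with TMM and 14.58% by library size alone. The replicate number, used as a block in a fit of the 6 heated libraries alone, gave 5721 calls. With 1 library left out the count was 1475 without heated affl-2 replicate 1, 1947 without replicate 3 and 3889 without replicate 2, and 1763 without heated N2 replicate 1 and 1726 without replicate 2. The same 1249 genes (734 lower and 515 higher) passed with each of the 12 libraries left out in turn. Where a library is left out below, "mutant replicate" and "N2 replicate" mean heated libraries unless called unheated.

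**Figure D1:**
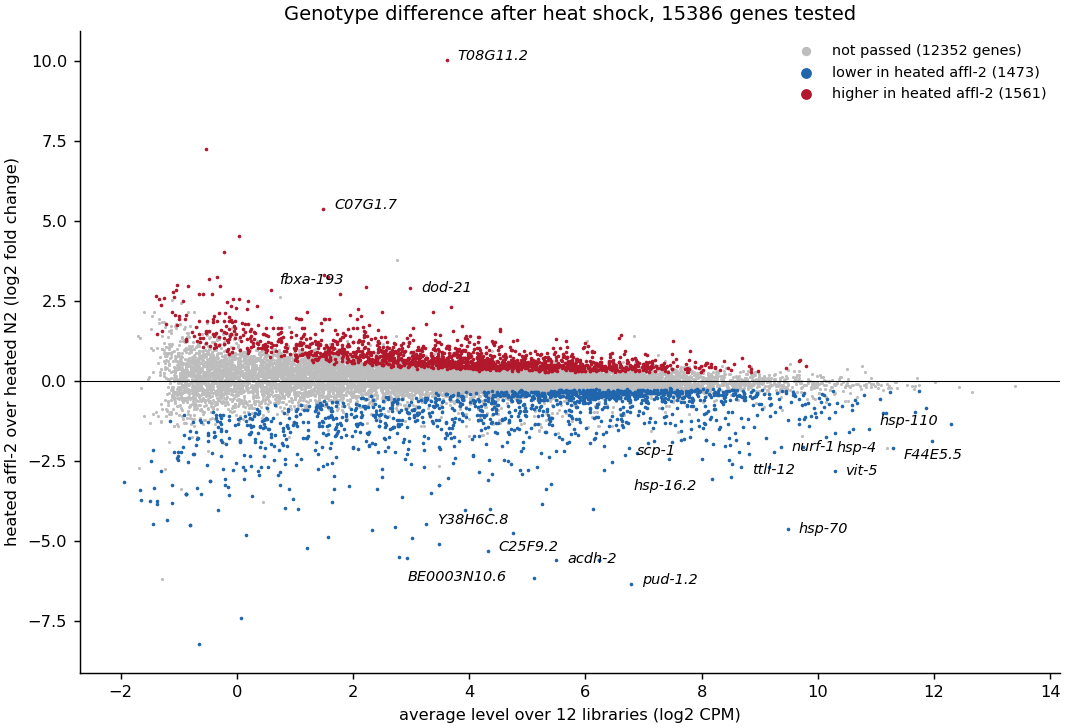
Each point is 1 of 15386 genes, with its average level over the 12 libraries (log2 CPM) on the horizontal axis and the log2 ratio of heated affl-2 over heated N2 on the vertical axis. Blue points are the 1473 genes lower in the mutant, red points the 1561 higher and grey points those that did not pass. Labels mark hsp-70 at −4.64, pud-1.2 at −6.36 and T08G11.2 at 10.01.

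The inducible HSP70 genes hsp-70 and F44E5.5 were lower in the heated mutant. hsp-70, on chromosome I at 9320325 to 9322519 on the minus strand (build WBcel235, 3 exons), stood at 111, 102 and 117 CPM in heated affl-2 and at 2552, 2609 and 3067 CPM in heated N2. The groups lay far apart and each was tight, a log2 difference of −4.64 ± 0.36 (adjusted p = 8.86e-06). Bulk RNA of whole animals cannot tell fewer expressing cells from less RNA per cell. At 20 °C hsp-70 was low in both genotypes, at 0.873, 2.65 and 1.91 CPM in affl-2 and 3.17, 2.02 and 7.04 CPM in N2.

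F44E5.4 and F44E5.5 are a pair of stress-inducible HSP70 genes side by side on chromosome II. F44E5.5 had 2002, 1599 and 2088 CPM in heated affl-2 and 7506, 7772 and 9086 CPM in heated N2, with no overlap (−2.1 ± 0.43, adjusted p = 0.00773). F44E5.4 had 1938, 1413 and 1983 CPM in heated affl-2 and 7494, 6903 and 8272 CPM in heated N2. These groups do not overlap either, but the difference of −2.09 ± 0.84 did not pass (adjusted p = 0.111), with the spread shared over all groups. Without heat its N2 values lay as far apart as 4.46 and 68.3 CPM. Fitted on the heated libraries alone it passed (adjusted p = 1.75e-05, and 2.23e-11 with the replicate number as a block). The 2 log2 differences were nearly equal, so the pass of F44E5.5 alone is not a difference between the genes. How far reads were divided between the 2 genes was not measured.

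Other members of the family differed less in ratio. hsp-110, a nucleotide exchange partner of HSP70, had 1709, 1769 and 1708 CPM in heated affl-2 and 4786, 4664 and 5232 CPM in heated N2 (−1.5 ± 0.10, adjusted p = 2.65e-07). hsp-4, the endoplasmic reticulum BiP, had 770.5, 826 and 825 CPM in heated affl-2 and 2473, 2427 and 3345 CPM in heated N2 (−1.77 ± 0.14, adjusted p = 1.97e-06). hsp-1, the cytosolic HSC70, had 2819, 2862 and 2726 CPM in heated affl-2 and 5415, 5294 and 5962 CPM in heated N2 (−0.99 ± 0.10, adjusted p = 1.85e-05). The groups were apart in all 3 genes, and for hsp-1 those levels compare with 2190 ± 205 CPM (SD) in unheated affl-2. The mitochondrial hsp-6 (−0.27, adjusted p = 0.0507) and the other BiP gene hsp-3 (−0.32, adjusted p = 0.0814) missed the threshold, and both passed with the replicate number as a block (adjusted p = 0.0397 for hsp-6 and 0.0385 for hsp-3). Higher in heated affl-2 was F11F1.1, an HSP70-related gene, with 15.1, 10.3 and 10.8 CPM in heated affl-2 and 5.04, 3.76 and 3.47 CPM in heated N2 (1.56 ± 0.20, adjusted p = 0.00011). Of 12 HSP70 and HSP110 genes tested, 5 were lower and 1 higher, with a median of −0.65 against 0.04 over all genes tested. Their summed level was 11271 to 12437 CPM in heated affl-2 and 32899 to 38514 CPM in heated N2.

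Small heat shock proteins are holdases without ATPase activity. hsp-16.2, on chromosome V at 1804334 to 1804957, had 131, 102 and 136 CPM in heated affl-2 and 1018, 938 and 1167 CPM in heated N2 (−3.08 ± 0.50, adjusted p = 0.00318). Its divergent neighbour hsp-16.41, 220 bases away at 1805178 to 1805875, had 182, 130 and 175 CPM in heated affl-2 and 1276, 1224 and 1397 CPM in heated N2 (−3.0 ± 0.47, adjusted p = 0.00242). Both genes of the pair were thus low in all 3 mutant libraries, with N2 libraries several-fold above.

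At the other hsp-16 locus copies are nearly identical and share reads. hsp-16.11 held all reads of its pair (hsp-16.1 was at 0 in all 12 libraries), with 863, 600 and 885 CPM in heated affl-2 and 2610, 2332 and 2890 CPM in heated N2. Its difference of −1.74 ± 0.66 did not pass (adjusted p = 0.0933, and 8.73e-05 on the heated libraries alone). hsp-16.48 had the same counts as its copy hsp-16.49, and each averaged 234 ± 39.6 CPM in heated affl-2 and 839 ± 60.1 CPM in heated N2. Their difference of −1.84 ± 0.53 passed at 0.0391, and the pass was lost by DESeq2 (adjusted p = 0.0543) and without any 1 of the heated libraries (without heated N2 replicate 1, adjusted p = 0.0911).

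Summed as 1 gene, which sets aside how reads were divided between copies, the hsp-16 genes gave 1692, 1209 and 1710 CPM in heated affl-2 and 6545, 6075 and 7267 CPM in heated N2. The sum averaged 1537 ± 284 CPM in heated affl-2 and 6629 ± 600 CPM in heated N2 (SD, 3 libraries each), with no overlap. Its log2 difference of −2.11 ± 0.71 did not pass (adjusted p = 0.0693). Unheated N2 libraries stood at 9.93, 3.90 and 48.6 CPM, and the same difference passed without unheated N2 replicate 2 (adjusted p = 0.0204) or 3 (adjusted p = 0.00144). It also passed on the heated libraries alone (−2.12 ± 0.15, adjusted p = 1.83e-05), and there with the replicate number as a block (−2.14, adjusted p = 2.9e-11). Of the other small heat shock protein genes, hsp-17 (−1.22 ± 0.24, adjusted p = 0.00412) and hsp-12.3 (−1.31 ± 0.32, adjusted p = 0.0128) were lower. sip-1, expressed in the germline and embryo, was higher, at 295, 235 and 295 CPM in heated affl-2 and 155, 149 and 124 CPM in heated N2 (0.95 ± 0.12, adjusted p = 0.000128). Over the list 6 of 12 members tested were lower and 1 higher, with a median of −1.26.

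**Figure D2:**
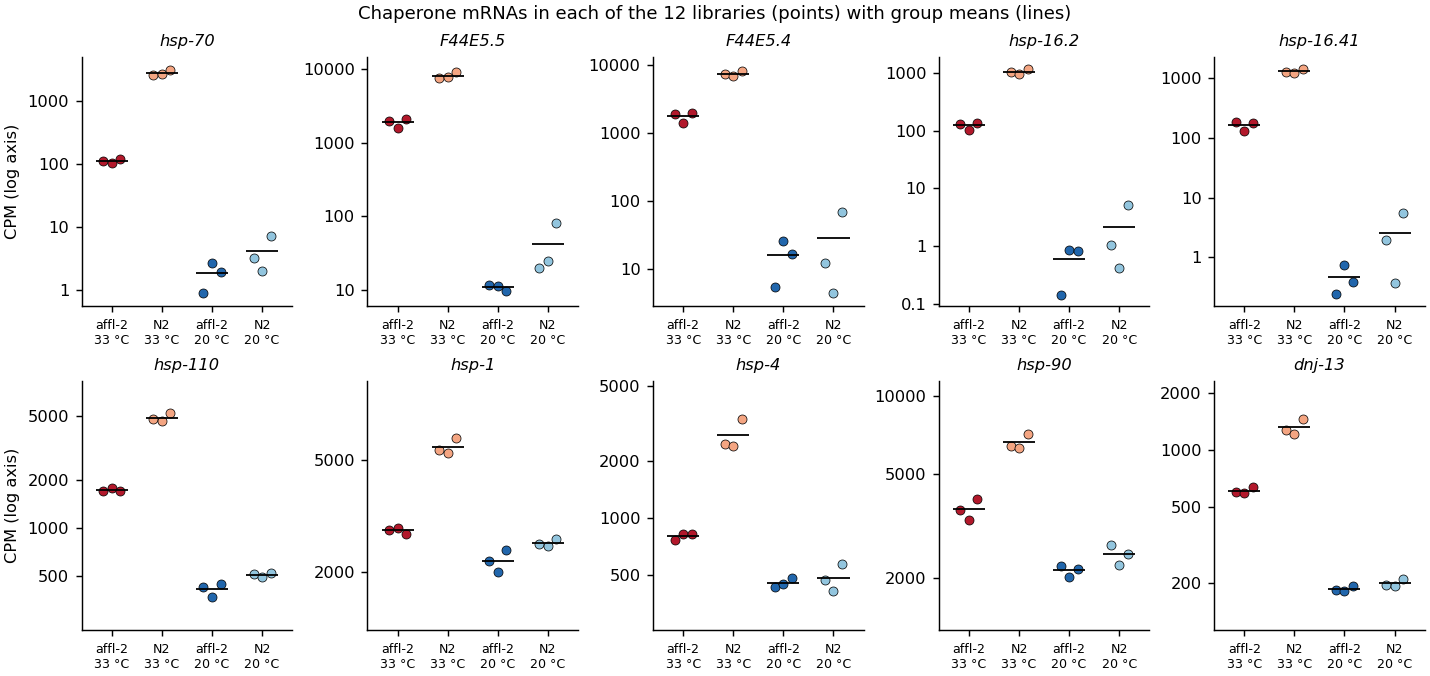
CPM on log axes for 10 chaperone genes in the 12 libraries. From left to right in each panel stand affl-2 at 33 °C, N2 at 33 °C, affl-2 at 20 °C and N2 at 20 °C, with 3 points a group and a line at the group mean. In heat every affl-2 point lies below every N2 point in all 10 panels, and hsp-70 shows the widest gap (111, 102 and 117 CPM in affl-2 against 2552, 2609 and 3067 CPM in N2).

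Of 21 genes for HSP90 and its cochaperones 17 did not pass, and 3 were lower. hsp-90, the only cytosolic HSP90 gene, had 3654, 3345 and 4002 CPM in heated affl-2 and 6411, 6308 and 7130 CPM in heated N2 (−0.85 ± 0.11, adjusted p = 0.000129). The BAG-domain cochaperone genes unc-23 (−0.71 ± 0.12, adjusted p = 0.00128) and bag-1 (−0.68 ± 0.10, adjusted p = 0.000271) were lower, and they make up, with hsp-90, the 3 lower genes. That count was 5 without mutant replicate 2 or unheated affl-2 replicate 1, and 7 with the replicate block. One gene of the list was higher, aha-1 (0.42, adjusted p = 0.0228), which encodes a homologue of the transcription factor ARNT and is no cochaperone, a call lost without N2 replicate 1 or 2 or mutant replicate 1 or 3, and the list's median was −0.07 (0.16 by library size alone). Among 29 DNAJ genes 1 was lower, dnj-13, the HSP40 partner of HSP110, with 598, 592 and 639 CPM in heated affl-2 and 1279, 1218 and 1454 CPM in heated N2 (−1.11 ± 0.09, adjusted p = 3.21e-06). The DNAJ median was −0.06 (0.16 by library size alone), and the lower count was 6 without mutant replicate 2, 3 without N2 replicate 3 or unheated affl-2 replicate 1, 2 without unheated affl-2 replicate 2 or 3, and 3 with the replicate block. Another DNAJ gene, dnj-28, was higher (0.39, adjusted p = 0.0302), a call lost without N2 replicate 2 or 3 or mutant replicate 1 or 2. Of the 8 subunits of the CCT chaperonin, which folds actin and tubulin, cct-8 alone passed (−0.28, adjusted p = 0.0377), and it did not without N2 replicate 1, 2 or 3, mutant replicate 1 or 3, or unheated N2 replicate 3.

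Genes for clearing damaged proteins showed a few large deficits, in lists with few lower members. The ubiquitin quality control list had 7.14% lower and the autophagy list 3.33%, against 9.57% of all genes tested. aip-1, an AN1 zinc finger protein of the proteasome response to arsenite, had 108, 104 and 122 CPM in heated affl-2 and 374, 373 and 475 CPM in heated N2 (−1.87 ± 0.14, adjusted p = 1.08e-06). The polyubiquitin gene ubq-1 averaged 1052 ± 30.6 CPM in heated affl-2 and 1655 ± 111 CPM in heated N2 (−0.65 ± 0.10, adjusted p = 0.000756). These were the 2 lower genes of 28 in the ubiquitin quality control list, a count of 9 without mutant replicate 2, 4 without unheated affl-2 replicate 1 or 2, and 6 with the replicate block. In that list skr-5 was the 1 higher, a call lost without N2 replicate 1 or 3 or mutant replicate 1 or 3. sqst-1, the p62 cargo receptor of selective autophagy, had 191, 171 and 219 CPM in heated affl-2 and 464, 418 and 496 CPM in heated N2 (−1.25 ± 0.14, adjusted p = 4.93e-05). At 20 °C the same gene ran the other way, with 77.2, 101 and 102 CPM in affl-2 and 52.3, 56.3 and 71.5 CPM in N2 (0.63 ± 0.14, adjusted p = 0.00911). It was the 1 lower of 30 autophagy genes, of which 4 were higher (16 by library size alone, 0 without N2 replicate 1 or mutant replicate 1, 1 without N2 replicate 2 or mutant replicate 3). The lower count was 2 without mutant replicate 2 or unheated affl-2 replicate 1. Proteasome subunits had 8 of 33 lower, by small amounts (median −0.23, close to 0 by library size alone, which left 0 lower). That count was 0 without mutant replicate 1, 1 without N2 replicate 1, 2 or 3, 2 without mutant replicate 3 and 3 without unheated N2 replicate 3.

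In the list of the endoplasmic reticulum unfolded protein response 4 of 23 genes were lower and none higher, with a median of −0.06 (0.17 by library size alone). Besides hsp-4 they were the choline kinase gene ckb-2 (−1.52 ± 0.20, adjusted p = 0.000181), the response's transcription factor gene xbp-1 (365 ± 37.1 CPM in heated affl-2 and 536 ± 66.5 CPM in heated N2, −0.55 ± 0.12, adjusted p = 0.00563) and pdi-2 (−0.59, adjusted p = 0.0322, not passing without N2 replicate 2 or 3 or mutant replicate 1 or 2). In the mitochondrial list 2 of 16 were lower, the peptide exporter gene haf-1 (−0.95 ± 0.17, adjusted p = 0.00147) and hsp-60 (−0.32, adjusted p = 0.0473). That count was 1 without N2 replicate 1 or 2, mutant replicate 1 or 3, or unheated N2 replicate 1 or 3, and 5 without mutant replicate 2 (median −0.10, 0.13 by library size alone). Of 35 stress transcription factor genes 5 were lower and 5 higher (median 0.05), and 2 lower and 18 higher by library size alone. The lower count was 1 without mutant replicate 1, 2 without N2 replicate 3, and 3 without N2 replicate 1 or 2 or mutant replicate 2. The higher count was 1 without mutant replicate 1 or 3 or N2 replicate 2, 2 without N2 replicate 1 and 3 without unheated N2 replicate 1. hsf-1 itself had 53, 64 and 53.1 CPM in heated affl-2 and 66.7, 65.5 and 52.6 CPM in heated N2, overlapping groups whose difference of −0.12 ± 0.12 did not pass (adjusted p = 0.482) and turned to 0.10 by library size alone. affl-2 mRNA, at 17.6 ± 1.49 CPM in heated affl-2 and 26.9 ± 2.69 CPM in heated N2, was lower (−0.61 ± 0.13, adjusted p = 0.00544) and still present, so it cannot check the genotype without the lesion. Its paralogue affl-1 averaged 1.43 ± 0.08 CPM in heated affl-2 and 0.54 ± 0.07 CPM in heated N2 (1.4 ± 0.37, adjusted p = 0.0171, and 0.0685 without N2 replicate 2). Other transcription elongation genes had 3 of 31 lower including affl-2, among them the Elongator subunit gene elpc-1 (−0.54 ± 0.10, adjusted p = 0.00223), and 1 higher (0 without N2 replicate 2). The lower count was 12 without mutant replicate 2, 5 without unheated affl-2 replicate 1 or 2, and 6 with the replicate block (median −0.14, 0.08 by library size alone).

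Outside the chaperones, the smallest p-value of all belonged to scp-1, the homologue of the SREBP cleavage-activating protein SCAP, which escorts the sterol-sensing transcription factor SREBP. scp-1, on chromosome II at 9334014 to 9338896 on the plus strand (12 exons), had 144, 149 and 143 CPM in heated affl-2 and 818, 757 and 771 CPM in heated N2 (−2.43 ± 0.08, adjusted p = 9.32e-10). The mutant libraries sat within a few CPM of each other, well below N2, while at 20 °C the groups stood at 53.2 ± 1.93 CPM in affl-2 and 49.9 ± 1.74 CPM in N2. The tubulin tyrosine ligase-like gene ttll-12, which starts 100 bases downstream on the same strand, had 180, 199 and 216 CPM in heated affl-2 and 1200, 1227 and 1422 CPM in heated N2 (−2.69 ± 0.11, adjusted p = 3.93e-09). Of the 6 genes tested within 10 kb of scp-1, ttll-12 was the 1 that was lower, and eif-3.F, 43 bases away, did not pass (−0.25, adjusted p = 0.0859, and 0.0351 with the replicate block).

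nurf-1, the large subunit of the NURF chromatin remodeler, had 380, 442 and 380 CPM in heated affl-2 and 1792, 1438 and 1804 CPM in heated N2 (−2.07 ± 0.12, adjusted p = 8.04e-08). With jmjd-3.3, a histone demethylase homologue at 2.64 ± 0.19 CPM in heated affl-2 and 6.53 ± 0.55 CPM in heated N2 (−1.3 ± 0.21, adjusted p = 0.00077), it was 1 of 2 lower among 38 chromatin genes (median −0.20, 0.02 by library size alone). That count was 15 without mutant replicate 2. Several genes without a role given here had far more reads in heated N2. C25F9.2 had 2.35, 1.25 and 2.28 CPM in heated affl-2 and 72.6, 92.6 and 68.8 CPM in heated N2 (−5.30 ± 0.24, adjusted p = 6.82e-09). Y38H6C.8 had 1.73, 1.78 and 1.41 CPM in heated affl-2 and 38.8, 38.3 and 33.9 CPM in heated N2 (−4.49 ± 0.23, adjusted p = 3.54e-08). The pseudogene Y17D7C.3 had 12.7, 12.4 and 14.7 CPM in heated affl-2 and 152, 138 and 124 CPM in heated N2 (−3.38 ± 0.17, adjusted p = 2.29e-08). None of the 3 exceeded 10 CPM in any unheated library, and in heat their groups were separated several-fold. Y43F8B.2 (−2.60 ± 0.14, adjusted p = 4.44e-08) overlaps an exon of Y43F8B.3 on the other strand, and reads of the pair cannot be told apart.

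Genes beside the hsp-16.2 pair were also low in the heated mutant. Y46H3A.5, 5469 bases from hsp-16.41, had 1.11, 0.916 and 1.16 CPM in heated affl-2 and 10.2, 10.9 and 12 CPM in heated N2 (−3.37 ± 0.18, adjusted p = 4.44e-08). srt-42, a chemoreceptor-class gene 1584 bases from hsp-16.41 that was chosen after its values were seen, had 0, 0 and 0 reads in heated affl-2 and 35, 37 and 23 reads in heated N2. With a floor of 3 counts per library it was at least 12.9-fold lower in heated affl-2. It passed the count filter through its heated N2 reads alone, the values compared here, so no p-value is given for it. Of tested genes within 10 kb, 3 of 3 around hsp-16.2 and 3 of 4 around hsp-16.41 were lower, against 9.57% of all genes tested. These counts take each of the pair as a neighbour of the other, and hold Y46H3A.5 and srt-42 in both. As srt-42 was tested only because of its heated N2 reads, its place in them is no support. The count was 2 of 5 around hsp-16.48 and 2 of 6 around hsp-16.49, and 1 of 2 around F44E5.4 and 0 of 1 around F44E5.5, again with the partner genes counted. It was 2 of 5 around hsp-110, 2 of 6 around dnj-13, 0 of 4 around hsp-70 and 0 of 3 around hsp-4.

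**Figure D3:**
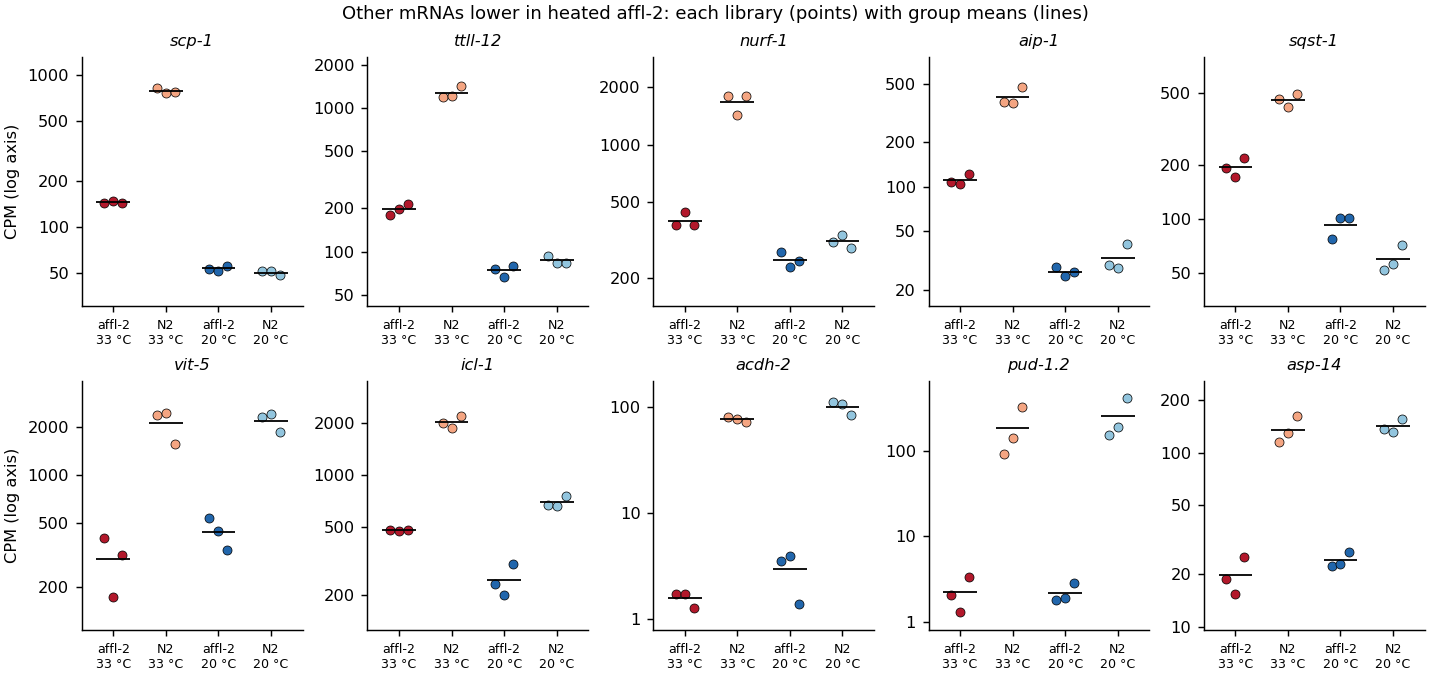
CPM on log axes for 10 other genes lower in heated affl-2, drawn as for the chaperones with affl-2 left of N2 at each temperature. The upper row (scp-1 to sqst-1) differs far more in heat than at 20 °C, where scp-1 averages 53.2 CPM in affl-2 and 49.9 CPM in N2. The lower row (vit-5 to asp-14) differs at both temperatures, as pud-1.2 does with 2.26 CPM in heated affl-2 and 185 CPM in heated N2.

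Several of the deepest deficits, those of the pud genes, BE0003N10.6 and acdh-2 among them, were there in unheated animals too, while C25F9.2 and hsp-70 did not pass at 20 °C. The pud genes encode small proteins named for their rise in daf-2 insulin receptor mutants and cluster on chromosome V between 2322038 and 2329954. pud-1.2 had 2.09, 1.3 and 3.39 CPM in heated affl-2 and 90.3, 141 and 325 CPM in heated N2 (−6.36 ± 0.69, adjusted p = 0.000341). At 20 °C it was likewise lower (−6.84, adjusted p = 0.00041), with N2 libraries at 153, 191 and 409 CPM. All 5 pud genes tested were lower, with a median of −5.61. pud-3 (−4.77 ± 0.95, adjusted p = 0.00968) did not pass without mutant replicate 1 (−4.41, adjusted p = 0.0516), and pud-2.1 and pud-2.2 share their reads. BE0003N10.6, a gene with no assigned role on chromosome III, had 0.933, 1.16 and 1.5 CPM in heated affl-2 and 77.7, 113 and 65.1 CPM in heated N2 (−6.15 ± 0.38, adjusted p = 8.67e-07).

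Of 39 fat breakdown and glyoxylate genes 11 were lower and 3 higher, with a median of −0.24 (−0.02 by library size alone). acdh-2, an acyl-CoA dehydrogenase, had 1.73, 1.74 and 1.26 CPM in heated affl-2 and 80.7, 76.4 and 72.0 CPM in heated N2 (−5.59 ± 0.28, adjusted p = 4.87e-08), and it shares exon bases with ins-13 on its own strand. icl-1, the bifunctional glyoxylate cycle enzyme that lets worms turn fat into sugar, had 481, 472 and 481 CPM in heated affl-2 and 1999, 1869 and 2196 CPM in heated N2 (−2.08 ± 0.14, adjusted p = 2.09e-07). acs-2, a mitochondrial acyl-CoA synthetase induced by fasting, had 10.8, 7.62 and 10.8 CPM in heated affl-2 and 80.4, 67.7 and 69.8 CPM in heated N2 (−2.90 ± 0.21, adjusted p = 8.13e-07). No mutant library reached the lowest N2 library in any of these, and all 3 genes were lower at 20 °C too. The carnitine palmitoyltransferase gene cpt-4 was lower (−1.46 ± 0.16, adjusted p = 3.08e-05). Of 17 fatty acid synthesis and desaturase genes 3 were lower and 7 higher (median 0.30), with fat-5, the palmitoyl desaturase, at 1.36 ± 0.27 (adjusted p = 0.00459). The 7 became 1 without N2 replicate 1 or 2 or mutant replicate 1 or 3, 3 without N2 replicate 3, and 4 without unheated N2 replicate 1 or 3 or unheated affl-2 replicate 2.

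Yolk genes and digestive enzymes of the intestine formed another group. vit-5 had 406, 174 and 320 CPM in heated affl-2 and 2374, 2421 and 1567 CPM in heated N2 (−2.82 ± 0.30, adjusted p = 8.1e-05). vit-2 had 2237, 1216 and 1662 CPM in heated affl-2 and 6854, 6686 and 5293 CPM in heated N2 (−1.88 ± 0.19, adjusted p = 1.96e-05). All 6 vitellogenin genes, which encode yolk made by the adult intestine, were lower, with a median of −2.08, and all 6 were lower at 20 °C. Heated affl-2 replicate 2 was the lowest mutant library for both genes, and the groups still did not overlap. asp-14, an aspartyl protease, had 18.8, 15.3 and 25.2 CPM in heated affl-2 and 115, 130 and 162 CPM in heated N2 (−2.78 ± 0.18, adjusted p = 1.79e-07). Among 23 intestinal proteases 11 were lower and 2 higher (1 without N2 replicate 1 or mutant replicate 1 or 3; median −0.56), including cpr-4 (−1.46 ± 0.17), cpr-9 (−1.17 ± 0.15), cpr-6 (−1.07 ± 0.16) and asp-1 (−1.0 ± 0.15). Lysozymes, which digest bacteria, were lower in 6 of 10 cases (median −0.87), with ilys-5 at 142 ± 25.4 CPM in heated affl-2 and 402 ± 59.3 CPM in heated N2 (−1.50 ± 0.15, adjusted p = 1.29e-05). Other intestinal genes had 4 of 29 lower and 5 higher (median 0.13), among them the inositol transporter gene hmit-1.1 (−0.88 ± 0.16) and the peptide transporter gene pept-1 (0.67 ± 0.12). The higher count was 3 without N2 replicate 1 or 2 or mutant replicate 1, 10 without mutant replicate 2 and 9 with the replicate block.

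Many cuticle collagen genes were lower. Of 133 col genes tested 60 were lower and 1 higher, with a median of −0.66, and 38 were lower without N2 replicate 3. col-182 averaged 4.38 ± 1.35 CPM in heated affl-2 and 32.6 ± 2.60 CPM in heated N2 (−2.90 ± 0.28, adjusted p = 2.19e-05), and the abundant col-63 averaged 212 ± 10.8 CPM in heated affl-2 and 821 ± 203 CPM in heated N2 (−1.95 ± 0.24, adjusted p = 0.000154). Of 17 collagens that set body shape 12 were lower (median −1.22), among them bli-6 (−1.35 ± 0.21), lon-3 (−2.32 ± 0.38), sqt-2 (−1.83 ± 0.35) and rol-6 (−1.44 ± 0.31), and 5 without mutant replicate 1 and 7 without mutant replicate 3 or N2 replicate 3. The 6 furrow collagens, which mark a phase of each cuticle cycle, had a median of −1.43, and 0 passed by edgeR, at an unadjusted p under 0.05 or by DESeq2. Their levels differed widely between libraries. dpy-3 had 8.4, 4.58 and 11.6 CPM in heated affl-2 and 16.6, 25.5 and 39.4 CPM in heated N2 (adjusted p = 0.239), and unheated N2 replicate 2 held 52.6 CPM, with 11.1 and 14.4 CPM in the other unheated N2 libraries. On the heated libraries alone the 6 furrow genes passed, with adjusted p from 0.00812 (dpy-3) to 0.0335 (dpy-2), and with the replicate block there 5 did (dpy-8 did not, 0.0634). Of 29 molting genes 0 passed by edgeR (median −0.33, 4 at an unadjusted p under 0.05, 0 by DESeq2). With the replicate block 1 was higher, 2 were higher without unheated affl-2 replicate 1, 2 were lower without unheated affl-2 replicate 3, and 1 was lower without mutant replicate 2 or unheated N2 replicate 2. Their summed level was 1862 to 2374 CPM in heated affl-2 and 2383 to 3431 CPM in heated N2. abu and pqn genes had 17 of 65 lower and 7 higher (median −0.15, 0.08 by library size alone), with pqn-2 at −2.18 ± 0.25, and 3 to 4 higher without N2 replicate 1 or 2 or mutant replicate 1. Hedgehog-related and patched genes had 8 of 72 lower (11.1%) and 2 higher (2.78%), with a median of −0.23. Of all genes tested 9.57% were lower and 10.1% higher. The hedgehog and patched list had 14 lower without unheated affl-2 replicate 3 and 5 lower without mutant replicate 1 or 3. It had 5 higher without unheated affl-2 replicate 1, and 1 higher without N2 replicate 2 or mutant replicate 3.

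Markers of stage, germline and other tissues were counted beside these groups, against 9.57% lower and 10.1% higher among all genes tested, and their part in the results was not tested. Adult-stage genes had 10 of 21 lower and none higher, with sums of 6575 to 10545 CPM in heated affl-2 and 18024 to 22414 CPM in heated N2. The adult markers include vit-2 and vit-6, counted above with the vitellogenins, so the 2 lists are not separate results. The vitellogenins alone summed to 3797 to 6515 CPM in heated affl-2 and 14604 to 18751 CPM in heated N2. Yolk mRNA at these levels was read although the labels give the L4 stage. Of 24 oocyte genes 2 were lower, the eggshell genes perm-2 (−0.82 ± 0.19) and perm-4 (−0.95 ± 0.16), with sums of 3168 to 4002 CPM in heated affl-2 and 3163 to 4789 CPM in heated N2. Germline genes had 10 of 41 lower (sums of 6864 to 8933 CPM in heated affl-2 and 9132 to 10368 CPM in heated N2), with 1 lower by library size alone. That count was 1 without N2 replicate 1 or 2 or mutant replicate 1 or 3, and 23 without mutant replicate 2. Sperm genes had 15 of 67 higher (median 0.40) and 53 by library size alone, with sums of 3770 to 5072 CPM in heated affl-2 and 3036 to 3769 CPM in heated N2. The sperm count was 0 without mutant replicate 1 or N2 replicate 2, 2 without N2 replicate 1, 5 without mutant replicate 3, 8 without unheated N2 replicate 1, 38 without mutant replicate 2 and 25 with the replicate block. Muscle genes had 3 of 41 lower (median −0.06, 0.16 by library size alone), pharynx genes 5 of 16 (median −0.38), hypodermal genes 3 of 26 (median −0.36), and synaptic and neuronal genes 1 lower and 3 higher of 43 (0 lower and 21 higher by library size alone). By library size alone 0 muscle genes were lower and 10 higher. The muscle count was 1 without N2 replicate 1 or 3 or mutant replicate 1. The pharynx count was 2 without N2 replicate 1 or mutant replicate 1 or 3, and 3 without N2 replicate 3, unheated N2 replicate 3 or unheated affl-2 replicate 2. The neuronal counts were 0 lower without any 1 heated library or unheated N2 replicate 3, and 1 higher without N2 replicate 1 or 2 or mutant replicate 3.

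Histone genes, whose mRNAs mostly lack poly(A) tails, had 25 of 44 lower and none higher, with a median of −1.4. Near-identical copies share reads here. his-38 averaged 0.77 ± 0.10 CPM in heated affl-2 and 4.79 ± 0.59 CPM in heated N2 (−2.63 ± 0.24, adjusted p = 6.9e-06), and his-5 had 0.711, 0.338 and 0.533 CPM in heated affl-2 and 4.09, 5.38 and 7.11 CPM in heated N2 (−3.36 ± 0.35, adjusted p = 2.09e-05). Ribosome biogenesis genes had 21 of 28 lower and none higher, a median of −0.46, and 11 lower by library size alone. The nucleolin homologue gene nucl-1 had 1349, 1609 and 1202 CPM in heated affl-2 and 2273, 2358 and 2077 CPM in heated N2 (−0.69 ± 0.12, adjusted p = 0.00118), and utp-20 of the small subunit processome was lower by −0.75 ± 0.13 (adjusted p = 0.0012). Of 66 ribosomal protein genes 0 passed by edgeR (median −0.14, 0.09 by library size alone), 2 had an unadjusted p under 0.05, and 1 was lower by DESeq2 and with the replicate block. SR and splicing factor genes had 6 of 24 lower (median −0.18, 0.05 by library size alone), and 0 without N2 replicate 2 or mutant replicate 1, 1 without N2 replicate 1 or 3 or mutant replicate 3, 2 without unheated N2 replicate 3 and 11 without mutant replicate 2. Nuclear genes of oxidative phosphorylation had 2 of 46 lower and 1 higher with a median of 0.09, and by library size alone 0 lower and 32 higher with a median of 0.31. The lower count was 0 without N2 replicate 1, 2 or 3, mutant replicate 1 or 3 or unheated N2 replicate 3, and 1 without unheated N2 replicate 1 or unheated affl-2 replicate 3. The higher count was 0 without N2 replicate 1 or 2 or mutant replicate 1 or 3, and 3 without mutant replicate 2. The small nematode-specific nsp genes had 17 of 34 lower and 4 higher (2 higher without N2 replicate 2 or 3 or mutant replicate 1), with a median of −0.90 and nspc-9 at −2.3 ± 0.23 (adjusted p = 1.46e-05).

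Detoxification genes split. gst-36, a glutathione S-transferase, had 65.0, 52.4 and 77.2 CPM in heated affl-2 and 255, 272 and 300.5 CPM in heated N2 (−2.09 ± 0.14, adjusted p = 2.3e-07), with 46.8 ± 4.53 CPM in unheated affl-2 and 43.6 ± 4.15 CPM in unheated N2. ugt-13, a glucuronosyltransferase, had 33.9, 31.7 and 39.9 CPM in heated affl-2 and 106, 107 and 111 CPM in heated N2 (−1.61 ± 0.14, adjusted p = 4.89e-06). The mutant libraries of both genes fell well short of N2. Of 38 glutathione S-transferases 9 were lower and 2 higher (1 without N2 replicate 1 or mutant replicate 1), and of 62 glucuronosyltransferases 22 were lower and 13 higher (6 higher without mutant replicate 3, 7 without N2 replicate 1 or mutant replicate 1, 8 without N2 replicate 2). ugt-66 (−2.32 ± 0.17), ugt-26 (−1.70 ± 0.16), gst-1 (−1.46 ± 0.14) and gst-4 (−1.48 ± 0.16) were among the lower ones. Cytochrome P450 genes had 11 of 57 lower and 2 higher, with cyp-35D1 at −1.70 ± 0.25 and cyp-32A1 at 1.28 ± 0.21. The higher count was 1 without N2 replicate 1 or 2 or mutant replicate 1 or 3, 5 without mutant replicate 2 and 4 with the replicate block. The oxidative stress list had 11 of 30 lower and 2 higher (0 higher without mutant replicate 1 or 3, 1 without N2 replicate 2), with the methionine sulfoxide reductase gene msra-1 at 74.1 ± 9.46 CPM in heated affl-2 and 280 ± 43.9 CPM in heated N2 (−1.92 ± 0.20, adjusted p = 3.68e-05). Metal response genes had 5 of 13 lower and none higher (median −0.34), including the cadmium-responsive cdr-4 at 28.3 ± 6.30 CPM in heated affl-2 and 86.2 ± 6.46 CPM in heated N2 (−1.61 ± 0.20, adjusted p = 0.000131). The copies numr-1 and numr-2, which share reads, both gave −3.14 ± 0.42 (adjusted p = 0.000188).

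Immune families had no common direction. C-type lectins had 10 of 130 lower and 22 higher (median 0.25; 44 higher by library size alone), with clec-47 at −3.09 ± 0.37 and clec-56 at 0.73 ± 0.14, and 6 higher without mutant replicate 1, 7 without N2 replicate 1 or 2 and 12 without mutant replicate 3. Antimicrobial genes had 4 of 35 lower and 2 higher (2 lower without N2 replicate 3 or mutant replicate 1, 4 higher without mutant replicate 2 or with the replicate block), with the saposin-like spp-2 at −2.04 ± 0.14 (adjusted p = 3.51e-07) and spp-24 at 1.21 ± 0.21. The pals list of the intracellular pathogen response had 3 of 28 lower and 6 higher (3 higher without N2 replicate 1 or mutant replicate 1), with pals-32 at 1.58 ± 0.28. DAF-16 class genes had 6 of 22 lower and 6 higher (2 higher without N2 replicate 1, 3 without mutant replicate 1 or 3), and astacin proteases 4 of 32 lower and 5 higher (2 lower without N2 replicate 3 or mutant replicate 1 or 3).

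Signalling genes held a few clear differences. daf-7, the TGF-beta ligand of the dauer pathway made in sensory neurons, had 2.62, 2.70 and 3.78 CPM in heated affl-2 and 13.2, 11.6 and 15.3 CPM in heated N2 (−2.14 ± 0.22, adjusted p = 2.21e-05). The receptor genes of the TGF-beta pathways ran the other way, with sma-6 at 20.5 ± 3.19 CPM in heated affl-2 and 11.3 ± 0.33 CPM in heated N2 (0.86 ± 0.14, adjusted p = 0.000714) and daf-1 at 0.60 ± 0.11 (adjusted p = 0.00245). Of 19 genes of these pathways 2 were lower and 9 higher (median 0.31), and the higher count was 2 without mutant replicate 1, 3 without N2 replicate 1 or 2 or mutant replicate 3, and 5 without N2 replicate 3. The lower count was 1 without mutant replicate 1 or 2 or any 1 heated N2 library. Neuropeptide and insulin genes had 9 of 112 lower and 2 higher (median −0.01, 0.21 by library size alone), with 3 lower without N2 replicate 3, 4 lower without mutant replicate 1, and 4 higher without N2 replicate 3 or mutant replicate 2. Amine receptors had 0 of 20 lower and 2 higher (1 without N2 replicate 1 or 2 or mutant replicate 2 or 3). One of them, the dopamine receptor gene dop-2, had 7.77, 8.59 and 8.48 CPM in heated affl-2 and 3.47, 4.36 and 4.32 CPM in heated N2 (1.03 ± 0.15, adjusted p = 0.000362). tph-1, the serotonin synthesis enzyme, averaged 2.27 ± 0.85 CPM in heated affl-2 and 0.96 ± 0.09 CPM in heated N2 (1.24 ± 0.29, adjusted p = 0.00889).

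Genes in excess in the heated mutant were fewer at large ratios. T08G11.2, a gene with no assigned role on chromosome I at 8919329 to 8920504 (minus strand, 5 exons), had 29.4, 26.2 and 22.8 CPM in heated affl-2 and 0, 0 and 0.0568 CPM in heated N2. That is 1678 reads in the mutant libraries and 1 in N2, a ratio of 1370 with a 95% counting interval of 246 to 54200 (adjusted p = 9.69e-10). Unheated libraries showed the same, with 22.6, 23.8 and 19.8 CPM in affl-2 and 0.0447, 0 and 0 CPM in N2. C07G1.7 on chromosome IV had 6.40, 3.91 and 4.60 CPM in heated affl-2 and 0.112, 0.119 and 0.114 CPM in heated N2 (5.36 ± 0.58, adjusted p = 4.08e-05), and was high in every unheated mutant library too. The adjacent genes ZC239.14 (3.3 ± 0.34, adjusted p = 2.2e-05) and ZC239.22 (3.25 ± 0.28, adjusted p = 3.7e-06) on chromosome II were higher. ZC239.14 averaged 5.15 ± 1.48 CPM in heated affl-2 and 0.51 ± 0.26 CPM in heated N2, and ZC239.22 averaged 5.33 ± 0.76 CPM in heated affl-2 and 0.56 ± 0.22 CPM in heated N2.

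Among more abundant genes the ratios were modest. tyr-4, a tyrosinase homologue, averaged 236 ± 33.8 CPM in heated affl-2 and 99.98 ± 13.5 CPM in heated N2 (1.24 ± 0.12, adjusted p = 1.59e-05). H06A10.1 (1.54 ± 0.14, adjusted p = 4.79e-06), Y25C1A.7 (0.92 ± 0.08, adjusted p = 5.65e-06) and the astacin gene nas-11 (1.03 ± 0.11, adjusted p = 2.99e-05) were higher in all 3 mutant libraries than in any N2 library. dod-21, a DAF-16 class gene, had 11.9, 16.45 and 8.87 CPM in heated affl-2 and 1.29, 0.956 and 2.73 CPM in heated N2 (2.89 ± 0.43, adjusted p = 0.000813). F-box A genes, which encode substrate adaptors of ubiquitin ligases, had 33 of 147 higher and 5 lower (median 0.40), with fbxa-193 at 8.48, 12.7 and 5.96 CPM in heated affl-2 and 0.953, 1.25 and 1.36 CPM in heated N2 (2.92 ± 0.34, adjusted p = 5.34e-05). Nuclear receptor genes had 41 of 203 higher (20.2%) and 10 lower (4.93%), with a median of 0.29. The other F-box, MATH and BTB genes had 16 of 117 higher (13.7%) and 10 lower (8.55%). Of all genes tested 10.1% were higher and 9.57% lower. By library size alone the higher counts were 61 for F-box A, 95 for nuclear receptor and 41 for the other F-box, MATH and BTB genes. F-box A genes had 17 higher without mutant replicate 1, 19 without N2 replicate 2 and 21 without mutant replicate 3, and 3 lower without mutant replicate 1 or N2 replicate 1. Nuclear receptor genes had 17 higher without mutant replicate 1, 22 without N2 replicate 1 or mutant replicate 3 and 24 without N2 replicate 2, and 5 to 6 lower without N2 replicate 1 or 2 or mutant replicate 3. The other F-box, MATH and BTB genes had 6 higher without mutant replicate 1 or N2 replicate 1, 8 without N2 replicate 2 and 10 without mutant replicate 3 or unheated N2 replicate 1, and 6 lower without mutant replicate 1 or 3 or N2 replicate 1 or 2. Against that direction, nhr-241 had 0.489, 0.289 and 0.388 CPM in heated affl-2 and 14.4, 12.4 and 8.53 CPM in heated N2 (−4.89 ± 0.31, adjusted p = 8.13e-07). Of 11 genes of the mitochondrial genome tested 2 were higher, MTCE.12 (0.64, adjusted p = 0.0164) and MTCE.35 (0.47, adjusted p = 0.0383), both chosen after their values were seen.

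**Figure D4:**
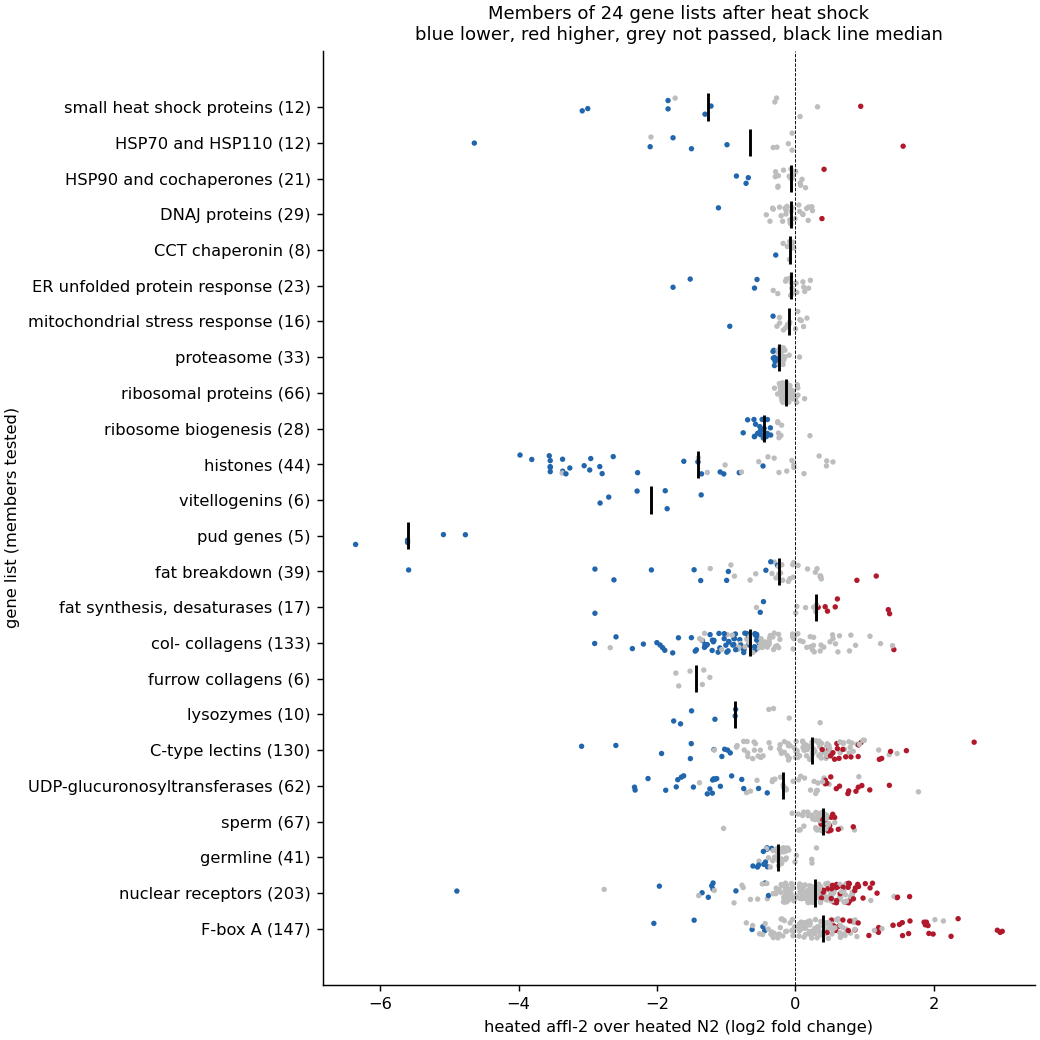
The log2 ratio of heated affl-2 over heated N2 for each tested member of 24 gene lists, 1 row a list, with the number tested in brackets. Blue points are lower, red points higher and grey points did not pass, and black lines are medians, from −5.61 for the pud genes to 0.40 for F-box A and sperm genes.

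The 6 unheated libraries were used to ask which differences were there without heat. At 20 °C 2151 genes passed, 1122 lower (7.29%) and 1029 higher (6.69%). The count was 1422 without unheated N2 replicate 1, 1220 without unheated N2 replicate 3 and 1228 without unheated affl-2 replicate 2. Of the genes lower after heat 732 were also lower at 20 °C, which is 49.7% of the heated list and 65.2% of the unheated one. Of the higher genes 611 were in both, 39.1% and 59.4%. These comparisons share no library but share the estimate of spread. Of the lists, 60 of 133 col genes and 15 of 17 body-shape collagens were lower at 20 °C too. So were 20 of 33 proteasome genes and 41 of 66 ribosomal protein genes, lists with 8 and 0 lower after heat. Library size alone moved the unheated median of all genes by 0.18. The proteasome genes pas-1, pas-4, rpn-3, rpn-7 and rpt-5 then lost the unheated pass by edgeR (adjusted p from 0.074 for pas-1 to 0.246 for rpn-3). In either list 0 members passed the interaction test described below. The vitellogenins, pud genes, acdh-2, asp-14 and T08G11.2 belong to the shared genes, and hsp-70, hsp-110, hsp-4, scp-1, nurf-1 and gst-36 did not pass at 20 °C. A difference that passes at 33 °C alone is not thereby shown to depend on heat.

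That was tested by the interaction, the heated difference minus the unheated one, which 110 genes passed (0.715%), 103 below 0 (0.669%) and 7 above (0.0455%). Of the genes lower after heat 95 passed it, all below 0, and of the higher genes 7 did. These are not the same 7 as those above 0, since R03D7.2 of the latter did not pass after heat (adjusted p = 0.965). Among the named genes the largest belonged to Y38H6C.8 (−6.69 ± 0.63, adjusted p = 4.55e-05) and C25F9.2 (−5.75 ± 0.51, adjusted p = 2.97e-05), and scp-1 had the smallest p-value of all genes tested (−2.52 ± 0.12, adjusted p = 4.69e-08). Among the chaperones hsp-70 gave −3.48 ± 0.56 (adjusted p = 0.0132), a call lost without mutant replicate 2 (adjusted p = 0.0773) or 3 (0.0502) or unheated affl-2 replicate 2 (0.059). hsp-110 (−1.2 ± 0.14) and hsp-4 (−1.67 ± 0.20) passed in every fit with a library left out, and hsp-1 (−0.78 ± 0.14) did not without mutant replicate 1 (adjusted p = 0.0561). The mitochondrial hsp-6, which missed the threshold after heat, passed the interaction (−0.65, adjusted p = 0.0257). Its values in other settings are not given here. F44E5.5 gave −0.16 ± 0.60 and the hsp-16 sum −0.27 ± 1.04, and neither passed (adjusted p = 0.98 for both), on unheated levels that spread widely. At 20 °C F44E5.5 was already lower in affl-2 (−1.94, adjusted p = 0.0175 by edgeR), a call lost in 5 other settings. Its neighbour F44E5.4 stood at −0.83 there and did not pass (adjusted p = 0.579). The hsp-16 sum stood at −1.84 there and did not pass (adjusted p = 0.165). In 10 genes the difference passed in opposite directions, lower at 33 °C and higher at 20 °C. They are sqst-1, ugt-13 and Y38H6C.8, and, chosen after their values were seen, cnp-3, F26F12.3, gst-20, nhx-3, spe-36, srdh-1 and srg-34. At 20 °C the pass of Y38H6C.8 was lost without unheated N2 replicate 1 (adjusted p = 0.0903) or 3 (0.0795) or unheated affl-2 replicate 2 (0.117). That of ugt-13 was lost without any 1 of 7 libraries (adjusted p = 0.163 without unheated affl-2 replicate 2), and that of cnp-3 without unheated N2 replicate 2 (0.0711) or 3 (0.0696).

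**Figure D5:**
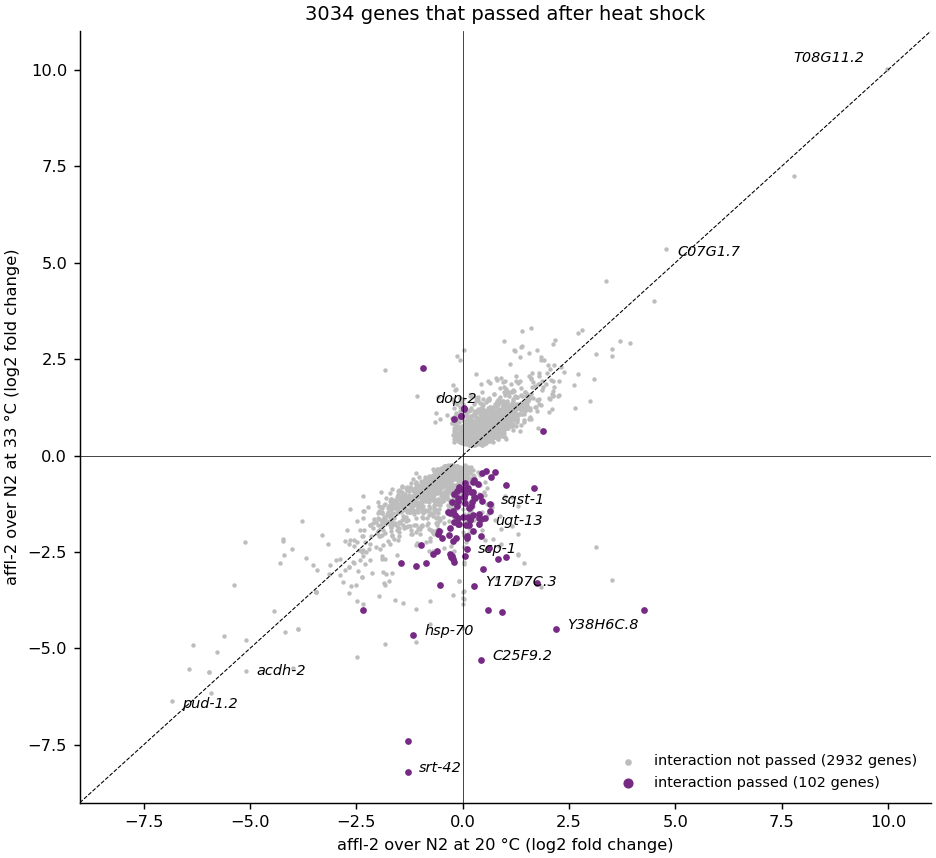
For the 3034 genes that passed after heat shock, the log2 ratio of affl-2 over N2 at 20 °C (horizontal axis) and at 33 °C (vertical axis), with a dashed line where they are equal. Purple points are the 102 genes whose interaction passed, and 95 of them are lower after heat. pud-1.2, acdh-2, T08G11.2 and C07G1.7 lie near the dashed line, while hsp-70, scp-1, C25F9.2 and Y38H6C.8 lie below it.

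Genes with a mean of 100 CPM or more in the unheated libraries had 373 of 2044 lower (18.2%) and 128 higher (6.26%), and genes between 10 and 100 CPM had 634 of 6962 lower and 808 higher. Genes from 1 to 10 CPM had 316 of 4803 lower (6.58%) and 513 higher (10.7%). Genes below 1 CPM without heat had 150 of 1577 lower (9.51%) and 112 higher (7.1%). Over all genes tested the shares were 9.57% and 10.1%. Genes this low without heat can pass the filter through their heated counts, the values compared here. Their shares are therefore no result about the class. Chromosome V held 12.7% lower genes and 11.4% higher ones, the largest share of lower genes of the 6 nuclear chromosomes. Chromosome X held 7.58% lower genes, the smallest share, and 13.1% higher ones, the largest. Genes lower beyond 2-fold had a median length of 1574 bases against 2413.5 for all genes tested, and 7.39% of them had a single exon against 2.0%. Genes higher beyond 2-fold were short too, with a median of 1918 bases, and 2.85% of them had a single exon. Several genes named above share exon bases with a gene on the other strand, among them hsp-90, unc-23, bag-1, hsp-17, ubq-1, gst-36, vit-2, msra-1, tyr-4, H06A10.1, nas-11 and tph-1, and without strand the reads of such pairs cannot be told apart.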

How the data were processed

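The authors deposited, for each of 12 libraries, a table of estimated counts and TPM (transcript levels scaled to a fixed total) per transcript. The submitters' processing notes name bcl2fastq 1.8.4, kallisto and genome build WBcel235, with no roles, and the version of kallisto is not given in the sources used here. TPM values, deposited by the authors, were not used in any test. Estimated counts of 35862 transcripts were summed by sequence name to 22010 genes and rounded to whole numbers. Gene symbols and positions came from annotation of the same build and matched 21842 genes.

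Samples were grouped by the labels. Genes passing edgeR's filter (minimum count 10) were fitted over all 4 groups with TMM scaling and the robust quasi-likelihood test of edgeR 4.0.16 in R 4.3.3, with Benjamini-Hochberg adjustment and a threshold of 0.05. DESeq2 1.42.0 was an alternative, and the code was tested on simulated data. Standard errors are the log2 ratio over the square root of its F statistic. CPM are counts scaled to a TMM-adjusted library of 1000000, with means given ± SD over 3 libraries. Library totals were 17973117 to 22657735, and counting intervals and floors cover counting error only.

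The main fit used no block. Deviations from the group mean in same-numbered heated libraries had correlations of 0.16, 0.12 and 0.35 between affl-2 and N2. For heated libraries of unlike number they ran from −0.24 to 0.09. The numbers were taken as pairs in the block fits alone, which comes from the data and not from the labels. In same-numbered unheated libraries the correlations were 0.06, −0.34 and 0.12. For unheated libraries of unlike number they ran from −0.30 to 0.28. The value was 0.28 between affl-2 replicate 2 and N2 replicate 1, and 0.18 between affl-2 replicate 1 and N2 replicate 2. Which numbering of these 2 affl-2 libraries is right was not tested.

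Named genes are the 15 lowest and 15 highest ratios among passing genes whose groups do not overlap and whose average log2 CPM reaches 1, the 10 smallest p-values in each direction, affl-2, affl-1 and hsf-1, each passing member of 4 chaperone lists, and up to 5 per other list by adjusted p. The genes and the 57 lists were chosen with earlier results of these data known. One list, of mitochondrially encoded genes, matched no gene by name.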

Additional observations from a re-analysis of the deposited data

Results flagged for a closer look

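In 32 named genes the genotype difference after heat shock differed from that without heat, by the interaction test of edgeR at an adjusted p of 0.05 over all genes tested. Values are the heated log2 ratio of affl-2 over N2 minus the unheated one. Among chaperone genes it was −3.48 for hsp-70, −1.67 for hsp-4, −1.2 for hsp-110, −1.01 for dnj-13 and −0.78 for hsp-1. Outside the named genes, hsp-6 gave −0.65. Among genes of protein and chromatin control it was −1.88 for sqst-1, −1.74 for nurf-1, −1.57 for aip-1, −1.50 for jmjd-3.3 and −1.2 for haf-1. The call of jmjd-3.3 was lost in 10 other settings and that of haf-1 in 7, most of them a library left out. That of hsp-70 was lost without each of 3 single libraries and that of hsp-1 without 1.

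In detoxification genes the difference of differences was −2.19 for gst-36, −2.14 for dhs-8, −2.13 for ugt-13, −1.74 for cdr-4, −1.34 for ugt-66, −1.12 for gst-1, −0.97 for gst-7 and −0.95 for ugt-12. The call of dhs-8 was lost in 10 other settings, with the replicate block (adjusted p = 0.0557) and transcript length as offset (adjusted p = 0.063) among them, and that of gst-1 in 1. For scp-1 it was −2.52, and for its neighbour ttll-12 it was −2.46. Genes of little known role gave −6.69 (Y38H6C.8), −5.75 (C25F9.2), −3.64 (Y17D7C.3), −2.84 (Y46H3A.5), −2.36 (Y43F8B.2), −1.76 (T10B5.8) and −1.66 (pgph-3). The lipase gene fil-2 gave −3.63, his-38 −2.36, daf-7 −1.66 and math-27 −1.15. The call of fil-2 was lost without each of 4 single libraries, that of daf-7 without each of 3, and that of math-27 with transcript length as offset (−0.59, adjusted p = 0.608). The 1 named gene above 0 was dop-2, at 1.08, and its call was lost without each of 6 single libraries.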

How the results depend on the processing

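The 3034 genes called after heat shock became 5698 by library size alone (831 lower and 4867 higher) and 246 when tested beyond 2-fold (212 lower and 34 higher). The replicate block gave 3669 over all libraries and 5721 on the heated libraries alone (2898 lower and 2823 higher). With the numbers of unheated affl-2 replicates 1 and 2 exchanged the block gave 5156 (2490 lower and 2666 higher). With 1 library left out the count ran from 1475 to 3889, with 831 to 1995 lower and 644 to 1894 higher. The count without heat, 2151, became 3384 by library size alone, 104 beyond 2-fold, 1220 to 2548 with 1 library left out, 3602 with the exchanged block and 1075 with the block on unheated libraries alone. The exchanged block on those alone, an alternative chosen after seeing the data, gave 3075. The interaction count of 110 became 216 by DESeq2, 23 beyond 2-fold, 221 with the exchanged block and 80 to 128 with 1 library left out. The hsp-16 sum (−2.11, adjusted p = 0.0693) passed by DESeq2 (−2.13, adjusted p = 0.0227), on heated libraries alone (−2.12, adjusted p = 1.83e-05), there with the block (−2.14, adjusted p = 2.9e-11) and with the exchanged block (−2.14, adjusted p = 0.0402), did not with the block by the labels' numbers over all libraries (−2.12, adjusted p = 0.0627), and ran from −2.19 to −1.97 with 1 library left out. hsf-1 turned to 0.10 by library size alone. The cause of these changes was not tested. The replicate block lost no heated call of a named gene, and lost the interaction call of dhs-8 (−2.13, adjusted p = 0.0557).

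DESeq2 called 3377 genes after heat shock, DESeq2's size factors 2966, no filter 2755, a mean of 1 CPM 2911 and transcript length as offset 2956. Of the main calls 2931 were shared with DESeq2 and 2391 with library size alone, none with opposite sign. Depth limits genes below 1 CPM.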

Other observations

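Genes whose interaction lay above 0 include some outside the naming rule, chosen after their values were seen. Y105C5A.1 averaged 9.72 ± 0.49 CPM in heated affl-2 and 4.16 ± 0.37 CPM in heated N2, with 8.5 CPM in unheated affl-2 and 8.3 CPM in unheated N2. Its interaction was 1.19 (adjusted p = 0.00662 by edgeR). R03D7.2 averaged 21.2 ± 3.21 CPM in heated affl-2 and 21.03 ± 4.08 CPM in heated N2, with 13.6 CPM in unheated affl-2 and 48.6 CPM in unheated N2, an interaction of 1.85 (adjusted p = 0.00114).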
